A study of Mus musculus with 3 samples.

Results

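S100-high resident macrophages of the mouse aorta are here macrophages selected for transcripts of resident macrophages, such as that of the hyaluronan receptor Lyve1. They were also selected for high transcript levels of the small calcium-binding proteins S100a4 and S100a6. How long they had resided in the vessel wall was not measured. They were selected cell by cell from a CITE-seq experiment on aortic CD45+ cells, in which the transcripts of a cell and the DNA-tagged antibodies on its surface are counted together as unique molecular identifiers (UMIs). A member had a top hashtag count of at least 3 times the second, mitochondrial UMIs of at most 10% and at least 3000 gene UMIs. It then had, per 10,000 gene UMIs, at least 20 of C1qa, C1qb and C1qc, at least 15 of the resident genes Lyve1, Folr2, F13a1 and Cbr2, fewer than 8 of the C-type lectins Clec10a, Cd209d, Cd209f and Cd209g, and at least 40 of S100a4 and S100a6, with no UMI of Cd79a or Cd3e. Of 8471 barcodes, 7196 passed the hashtag step, 6098 the mitochondrial step and 5348 the UMI step. The C1q step left 2828, the resident step 1832 and the Cd79a and Cd3e step 1636. These 1636 cells are called resident-gate macrophages here. Of them, 1287 were low in the lectins, and 174 of those were members.

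The 10 aortas came from C57BL/6 mice of both sexes and were pooled into 1 10x Genomics run, so that each mouse is told by its hashtag number. Mice 1 to 5 were Jak2WT controls, and mice 6 to 10 were Jak2V617F Myel mice, which carry a Cre-dependent Jak2V617F allele (Flex/WT) with LysM-Cre. Mice 6, 8 and 10 had aortic dilation and mice 7 and 9 had aneurysm. LysM-Cre is driven by the lysozyme 2 promoter, which is active in monocytes, macrophages and neutrophils, and the share of members in which the allele had recombined was not measured by these counts. The age of the mice and the sex of each one were not given in the sources used here. All mice received intravenous anti-CD45.2 before sacrifice, which marks leukocytes still in the blood, and the aortas were digested with collagenases, hyaluronidase and DNAse at 37 °C. The sort was adjusted to give similar cell numbers of both genotypes, so only shares within a mouse were compared. Mice 1 to 10 gave 10, 12, 3, 6, 15, 18, 33, 25, 31 and 21 members. Mice 3 and 4, with fewer than 10 members each, were left out of transcript and antibody tests, which leaves 3 WT and 5 mutant mice.

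Resident macrophages of arteries live in the adventitia, are seeded early in life and maintain themselves largely without blood monocytes. They clear dead cells, take up hyaluronan and handle iron, and the C1q complement genes, Mrc1 and Pf4 are among their usual marks. S100a4 and S100a6 bind calcium and then attach to partners such as annexins, non-muscle myosin and other proteins of the cell cortex. Aqp1 forms a water channel in the plasma membrane and is best known from endothelium, red cells and kidney.

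The 3 stretches of sequence printed here belong to the genes that name the population. Each is the 250 bases before the RefSeq start of the gene (build GRCm38.p6, + strand), at chr3:90603520-90603769 for S100a4, chr3:90612644-90612893 for S100a6 and chr6:55336049-55336298 for Aqp1. S100a4 (ENSMUSG00000001020) and S100a6 (ENSMUSG00000001025) are neighbors on chromosome 3. They are shown because these genes give the population its name. Capitals mark a TATA box (TATAAA), which starts 31 bases before the start of S100a4.
S100a4: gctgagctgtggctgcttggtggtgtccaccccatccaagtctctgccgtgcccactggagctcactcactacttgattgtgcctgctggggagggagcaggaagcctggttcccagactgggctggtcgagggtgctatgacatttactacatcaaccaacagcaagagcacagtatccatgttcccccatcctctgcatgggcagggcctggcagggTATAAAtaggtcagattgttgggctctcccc
S100a6: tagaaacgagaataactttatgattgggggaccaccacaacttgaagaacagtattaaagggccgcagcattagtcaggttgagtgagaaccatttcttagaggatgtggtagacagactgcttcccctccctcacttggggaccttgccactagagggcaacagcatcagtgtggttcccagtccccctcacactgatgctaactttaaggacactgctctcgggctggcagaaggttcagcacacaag
Aqp1: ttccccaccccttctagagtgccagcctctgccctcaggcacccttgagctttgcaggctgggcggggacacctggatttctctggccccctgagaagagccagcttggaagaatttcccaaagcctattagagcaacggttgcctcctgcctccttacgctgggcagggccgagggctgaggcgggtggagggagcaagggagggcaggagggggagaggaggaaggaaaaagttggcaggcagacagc
In windows of 300 bases (250 before and 50 after the start), searched on both strands, the AP-1 motif TGANTCA and the STAT motif TTCNNNGAA had no match in these 3 genes, and TATAAA had a match in S100a4 alone. TATAAA was searched after the first 2 motifs had given none. Of all 32851 promoters of that length in the table, 7.81% held the AP-1 motif, 8.30% the STAT motif and 13.6% TATAAA. S100a4, S100a6 and the 10 genes named below as raised against S100-low cells, Aqp1 among them, make 12, of which 9 had a promoter in the table. Of these 9, Anxa2 had an AP-1 match 95 bases before its start, Anxa2 and S100a4 had TATAAA, and none had a STAT match. A match here is a match of letters and nothing more.

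S100a4, a gene of the rule, stood at 29.8, 33.2 and 30.8 UMIs per 10,000 in members of WT mice 1, 2 and 5, at 28.5, 31.5 and 29.7 in mice 6, 8 and 10 with dilation, and at 31.1 and 27.9 in mice 7 and 9 with aneurysm. S100a6 ranged from 30.6 to 36.7 in the same 8 mice. S100-low cells, which passed the same steps but held fewer than 40 UMIs of the pair per 10,000, had 3.09 to 4.98 of S100a4 and 4.25 to 6.52 of S100a6. The rule fixes this gap, so it was not tested. Lyve1, another gene of the rule, was 15.2 to 31.6 in members and 11 to 16.5 in S100-low cells, and a Lyve1 UMI was found in 90.8% of members after each cell was thinned to 3000 UMIs. S100-low cells, which passed the same Lyve1 step, had one in 82.6%.

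The S100 level had no gap at the threshold. The 3 cells just outside it held 39.5, 39.9 and 39.96 UMIs of S100a4 and S100a6 per 10,000, and the 3 just inside held 40.7, 40.8 and 41.0. Between 40 and 50 lay 60 members, 114 members lay at 50 or more, and 82 cells lay between 30 and 40. The median of the pair was 54.9 in members and 2.75 in S100-low cells, of which 647 of 1113 held fewer than 5. Whether members form a cluster over all genes was not tested. They were also the deeper cells, with a median of 13765 gene UMIs and 3520 genes against 10127 and 2836 in S100-low cells and 10799 and 2957 in the 349 lectin-high cells (resident-gate macrophages with lectins at 8 or more, at any S100 level). The median mitochondrial share was 2.22% in members, 2.21% in S100-low cells and 2.22% in lectin-high cells. No barcode occurred more than once.

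Aqp1 (ENSMUSG00000004655, chromosome 6, 55336432 to 55348555, + strand, GENCODE vM21) was not part of the rule, but it was taken as a marker of these cells with results of the same data known, so its values are given as a description. The level in members was 3.34, 3.63 and 2.30 UMIs per 10,000 in WT mice 1, 2 and 5, it was 1.99, 2.59 and 1.64 in mice 6, 8 and 10, and it was 2.85 and 2.29 in mice 7 and 9. S100-low cells of the same mice held 0.0833 to 0.196. Each mouse was far apart from its own S100-low cells, and the lowest member value was above every S100-low value. A UMI of Aqp1 was found in 66 of 174 members thinned to 3000 UMIs (37.9%, exact 95% interval 30.7 to 45.6), against 2.25% of S100-low cells, 2.01% of lectin-high cells and 0 of 510 B cells, which allows up to 0.721% (exact interval). Without thinning the shares were 55.2%, 6.38%, 4.01% and 0.392%, at median depths of 13765, 10127, 10799 and 6280 UMIs. These intervals cover counting error only. B cells stand here for cells that should lack the gene, and members were far above that background.

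Within the lectin-low resident macrophages, Aqp1 was higher in each S100 bin than in the bin below it, which is given as a description. It was 0.00777 UMIs per 10,000 in the 647 cells with fewer than 5 UMIs of the S100 pair, 0.459 in the 82 cells between 30 and 40, 1.67 in the 60 members between 40 and 50 and 4.42 in the 53 members at 70 or more. Anxa2, which encodes annexin A2, went from 0.511 to 7.72 over the same outer bins. Capg, an actin-capping protein, went from 0.839 to 7.85. Tppp3, a tubulin-binding protein, went from 0.362 to 4.79. The median depth of these bins went from 9480 UMIs in the lowest to 13837 in the highest, so cells higher in the range were also deeper, and each level is a share of the UMIs of its bin. Aqp1 was also lower in cells outside the gate, at 0.0460 in other C1q-high cells and 0.0361 in C1q-low cells. Among members, 45.2% to 80.0% of the cells of mice 1, 2, 5 to 9 and 33.3% of those of mouse 10 had an Aqp1 UMI without thinning.

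**Figure D1:**
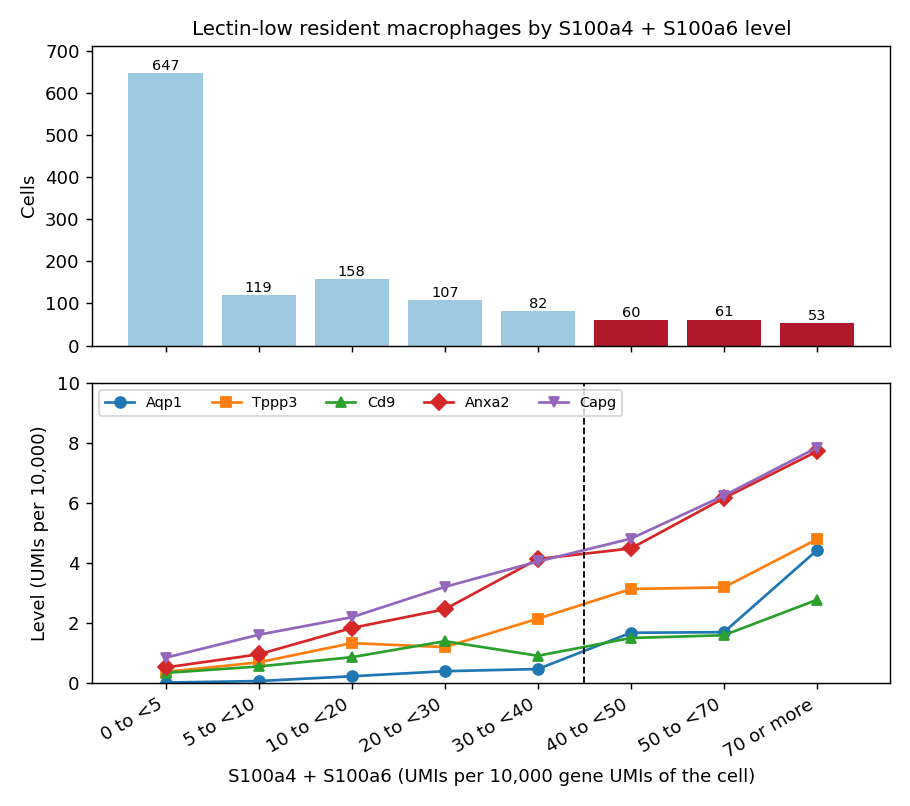
Lectin-low resident macrophages (resident-gate cells with fewer than 8 lectin UMIs per 10,000) binned by S100a4 + S100a6 in UMIs per 10,000 on the x axis, in bins of unequal width. The upper panel counts cells (members red, S100-low blue) and the lower panel gives the pooled level of 5 genes in UMIs per 10,000, with the threshold of 40 as a dashed line; Aqp1 goes from 0.00777 to 4.42 and Anxa2 from 0.511 to 7.72.

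The share of members among resident-gate macrophages was compared between genotypes. It was 9.09%, 10.3%, 2.52%, 10.2% and 9.62% in WT mice 1 to 5. It was 13.1%, 15.3% and 6.98% in mice 6, 8 and 10 with dilation, and 16.5% and 11.3% in mice 7 and 9 with aneurysm. All mutant mice but mouse 10 were above every WT mouse, and WT mouse 3 was far below the others. As a share of all barcodes past the UMI step, only mutant mice 6 and 8 (4.66% and 6.44%) were above every WT mouse. By that measure WT mouse 4, at 4.44%, was above mutant mice 7, 9 and 10 (3.54%, 3.17% and 2.56%). The mean was 12.7% ± 3.75 (SD, n = 5) in mutant and 8.33% ± 3.28 (SD, n = 5) in WT mice, from 128 of 1075 and 46 of 561 cells. The difference of 4.32 percentage points did not pass the two-sided exact permutation test (p = 0.0952, adjusted p = 0.190 over the 2 share tests made, where 0.00794 is the smallest p that 5 against 5 mice can give). Single mice moved it: without mouse 10 it was 5.74 points with an exact permutation p of 0.00794, and without WT mouse 3 it was 2.87 points with an exact permutation p of 0.183. Aneurysm and dilation differed by 2.09 points (13.9% ± 3.67, n = 2, against 11.8% ± 4.33, n = 3, SD) with an exact permutation p of 0.7, and 2 against 3 mice cannot go below 0.1. That difference turned to -0.504 points without mouse 7, to -0.331 without mouse 10 and to -1.20 as a share of all barcodes past the UMI step.

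**Figure D2:**
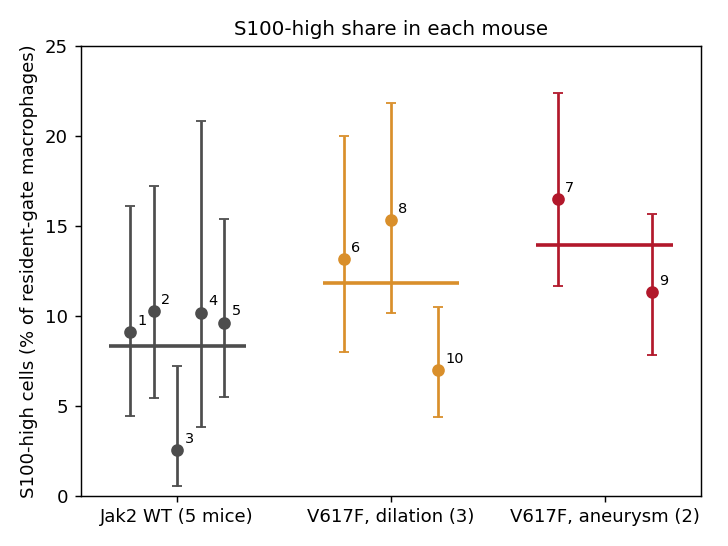
Members as a percent of resident-gate macrophages (y axis) in each of the 10 mice, by group; points are mice with exact 95% binomial intervals and their hashtag number, and lines are group means. WT mice 1, 2, 4 and 5 lie between 9.09% and 10.3%, mouse 3 at 2.52%, and mutant mice between 6.98% and 16.5%.

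Members were next set against S100-low cells of the same mouse. Higher in members were all 15 genes of a list of annexins and membrane-linked partners, 16 of 17 actin and filament genes, Cd44 and Cd9. Lower were most immediate-early genes, 10 of 15 chemokines, apolipoprotein E and 5 of 10 heme and iron genes. The classes were divided by the S100a4 and S100a6 counts of the same cells, so the test says which other transcripts went with those counts. The 15 genes of the rule were taken out of the tables before the fit. With the mouse as a block, 620 of 8179 transcripts were higher and 647 lower in members (15.5% of those tested, 7.58% raised and 7.91% lowered; adjusted p under 0.05, edgeR). Scaling by total UMIs instead of TMM gave 909 higher and 458 lower, a shift of the median by 0.09 on the log2 scale. With no low-count filter the balance went the other way, with 483 higher and 967 lower of 16600 tested. With all cells thinned to 3000 UMIs, 400 of 4101 tested passed, 158 higher and 242 lower.

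Annexins are calcium-dependent binders of membrane phospholipids, and S100 proteins of this family are their classical partners. All 15 tested genes of the list of annexins and membrane-linked partners were raised, with a median log2 fold change of 1.01 against -0.01 over all 8179 transcripts tested. Anxa2 had a lowest, median and highest level of 4.65, 5.71 and 7.72 UMIs per 10,000 over the members of 8 mice and of 1.03, 1.25 and 1.78 over S100-low cells. The groups did not overlap, and the log2 fold change was 2.09 ± 0.12 (SE, adjusted p = 1.16e-11). Anxa1, the annexin that binds formyl peptide receptors, was 3.30, 3.92 and 5.58 against 0.820, 1.33 and 2.13, a log2 change of 1.54 ± 0.09. Lgals3, encoding the sugar-binding galectin-3, was 4.65, 9.17 and 15.5 against 1.34, 1.87 and 4.09, a log2 change of 1.90 ± 0.16 (adjusted p = 1.09e-08). Its highest S100-low mouse stayed below its lowest member value. Capg rose by 1.79, the membrane proteins Plp2 and Emp1 by 1.56 and 1.37, the LIM protein Crip1 by 1.34, Lgals1 by 1.01 and Anxa5 by 0.66 on the log2 scale, each in 8 of 8 mice.

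S100 genes outside the rule followed in part. S100a10, the S100 protein that binds annexin A2, was 14.3, 22.9 and 26.0 UMIs per 10,000 in members (lowest, median and highest of 8 mice) and 5.31, 7.79 and 9.44 in S100-low cells. The groups did not overlap and the log2 fold change was 1.44 ± 0.08 (adjusted p = 1.06e-11). S100a11 rose by 1.41 ± 0.09, S100a13 by 0.70 ± 0.10 and S100a1 by 0.64 ± 0.11, each in 8 of 8 mice. S100a8 and S100a9, the S100 proteins of neutrophils, fell by 4.36 and 2.39 on the log2 scale, but in 5 of 8 mice each. The neutrophil list summed to 0.316 UMIs per 10,000 in members and 1.91 in S100-low cells, with S100a8 as its most abundant gene in S100-low cells at 0.741 and Cxcr2 at 0 in members. Without cells at 10 or more per 10,000 of another lineage list, an alternative chosen after the values were seen, 5 S100 genes were tested and 4 rose, with none lowered. That alternative did not remove cells by the monocyte list.

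Actin and intermediate filament genes formed the other large group that rose. Of 17 tested, 16 were raised and none lowered, with a median log2 fold change of 0.52. Vim, encoding the intermediate filament vimentin, was 21.0, 27.8 and 39.3 UMIs per 10,000 in members and 8.53, 12.9 and 16.4 in S100-low cells (1.19 ± 0.08, adjusted p = 7.75e-10). Lmna, encoding the nuclear lamins A and C, rose by 1.03, Tmsb10 by 0.96, Lsp1 by 0.94, Tagln2 by 0.77 and Actb by 0.42. Tmsb4x, at 0.13, was the gene of the list that did not pass. After thinning, 10 of the 17 were raised and none was lowered, against 158 raised and 242 lowered of all 4101 transcripts tested.

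The naming rule took the called genes with the largest change in all 8 mice. Apart from Aqp1 (log2 fold change 3.97) and Anxa2, it named Mamdc2 (2.87), the caveolar coat protein gene Cavin1 (2.41), the small homeodomain gene Hopx (2.29), the LIM protein gene Crip2 (2.24), Tppp3 (2.17), Glipr2 (2.12), the calcium pump gene Atp2b4 (2.11) and Cd226 (1.97), a receptor for nectin-like ligands. Hopx was 0.542, 1.02 and 1.37 UMIs per 10,000 in members against 0.118, 0.209 and 0.238 in S100-low cells, with no overlap. Tppp3 was 2.04, 3.83 and 4.78 against 0.398, 0.653 and 1.37, also apart. A Tppp3 UMI was found in 51.7% of thinned members, 14.7% of thinned S100-low cells and 3.92% of thinned B cells. For Hopx the shares were 21.3%, 3.95% and 10.8%, so that B cells held more of it than S100-low cells did.

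**Figure D3:**
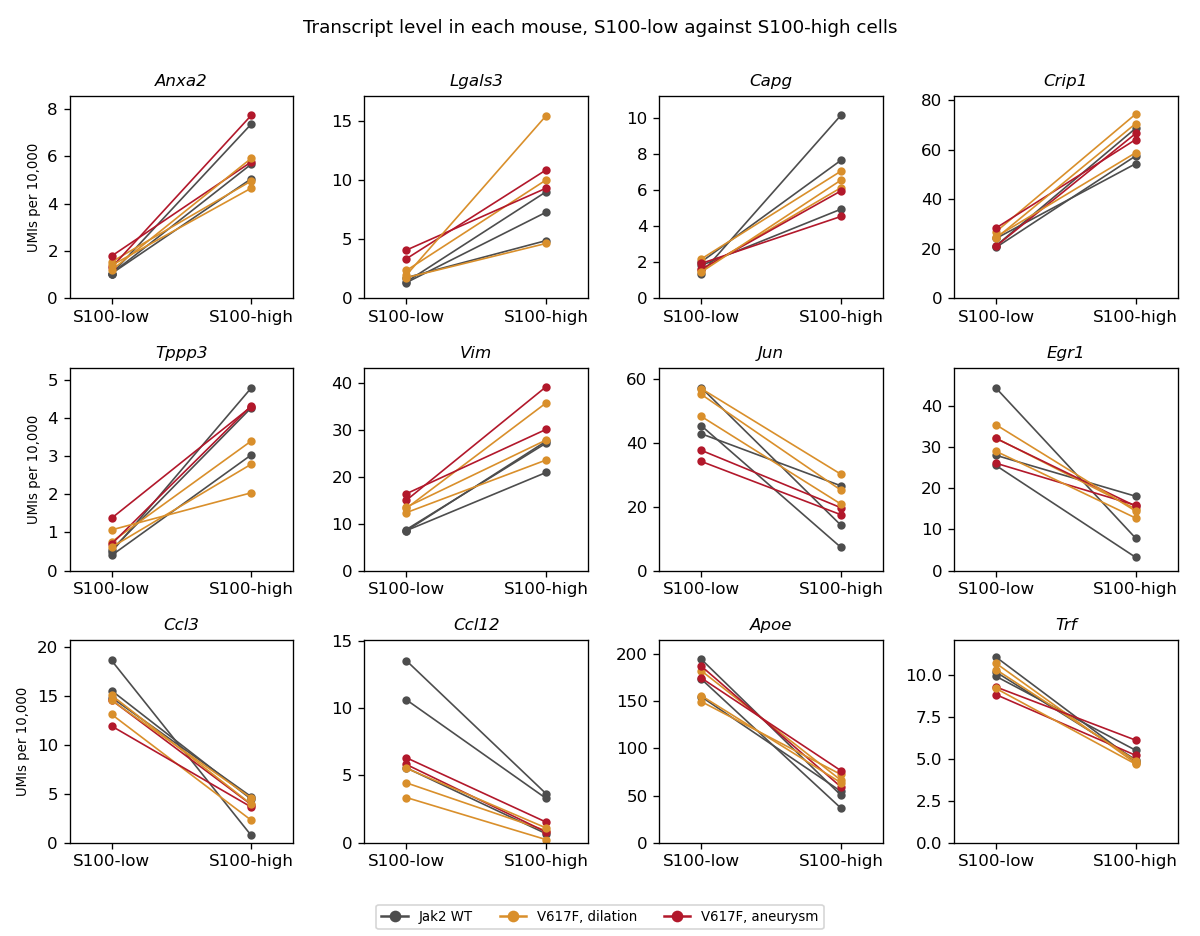
Level of 12 transcripts (UMIs per 10,000, y axis) in S100-low and S100-high cells, joined within each of the 8 mice and colored by group; the genes were chosen after their values were seen. Anxa2, Lgals3, Capg, Crip1, Tppp3 and Vim are higher in S100-high cells of all 8 mice, and Jun, Egr1, Ccl3, Ccl12, Apoe and Trf are lower in all 8.

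Immediate-early genes are switched on within minutes by growth factors, cytokines or the handling of tissue, and heat-shock genes by stress. Members held less of them: 16 of 18 tested were lowered and none raised, with a median log2 fold change of -0.95. Jun was 7.29, 20.3 and 30.2 UMIs per 10,000 in members and 34.2, 46.9 and 57.4 in S100-low cells, apart in all mice (-1.37 ± 0.15, adjusted p = 1.29e-06). Egr1 was 3.21, 14.7 and 18.1 against 25.5, 30.6 and 44.4 (-1.44 ± 0.18), and Fos was 13.2, 21.5 and 31.7 against 33.6, 37.2 and 46.1 (-0.95 ± 0.10). Atf3 fell by 1.16, Dusp1 by 0.95 and Hspa1a by 0.39, while Klf2 (0.27) and Klf4 (-0.11) did not pass. Hspa1a and Hspa1b are near-identical copies whose reads can be split between them. The cells of all mice went through the same warm digestion, and its part in these levels was not tested.

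Chemokines went the same way, with exceptions. Of 15 tested, 10 were lowered and 2 raised, at a median of -0.85. Ccl3, a chemokine that attracts leukocytes, was 0.741, 3.92 and 4.71 UMIs per 10,000 in members and 12, 14.7 and 18.7 in S100-low cells (-2.16 ± 0.18, adjusted p = 9.17e-09). Ccl4 fell by 1.95, Ccl12, a monocyte attractant, by 2.42, Ccl7 by 1.00 and Cxcl16 by 0.61. Ccl6 and Ccl9, CC chemokines of mouse myeloid cells, rose by 0.76 and 0.81, each in 8 of 8 mice. Of 7 inflammatory transcripts that the study followed (Nlrp3, Tnf, Tnfsf9, Ccl2, Cxcl1, Cxcl2 and Cxcl10), 6 were lowered in members and Cxcl10 was at 0.18 (adjusted p = 0.660). This list was taken from the study and so is not independent of these samples. Cxcl2, a neutrophil attractant, was 29.6, 64.1 and 104 in members and 73.4, 109 and 132 in S100-low cells, groups that overlap. Interferon-stimulated genes had 6 of 11 lowered and none raised, among them Ifit3 (-1.84) and Rsad2 (-1.78), and receptors, kinases and feedback genes of the JAK-STAT pathway had 7 of 22 lowered and none raised. After thinning, 1 of 5 interferon-stimulated and 2 of 15 JAK-STAT genes were lowered, against 242 of all 4101 transcripts tested. The 7 JAK-STAT genes were Csf3r, Il10ra, Il13ra1, Socs3, Pim1, Pim3 and Bcl6, with Pim3, a kinase induced by STAT factors, at -1.39 ± 0.17 (adjusted p = 3.71e-06). Jak2 itself (chromosome 19, 29251828 to 29313080, + strand) was at 0.254 in members and 0.263 in S100-low cells as medians and at -0.18 on the log2 scale (adjusted p = 0.675).

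Marks of residence were mixed. Of 16 tested, 4 were raised and 7 lowered. Pf4, which encodes platelet factor 4 and is a known mark of aortic resident macrophages, was 37.4, 41.9 and 44.6 UMIs per 10,000 in members and 25.3, 31.5 and 38.1 in S100-low cells (0.30 ± 0.08, adjusted p = 0.0117). The complement receptor gene Vsig4 rose by 1.14 and the lectin gene Fcna by 0.49. Mrc1, the mannose receptor, fell by 0.49, the hemoglobin scavenger receptor Cd163 by 0.53, Maf by 0.46 and Igf1 by 0.54. Timd4, the phosphatidylserine receptor, was at 0.29 and did not pass (adjusted p = 0.183). Genes for the uptake of dead cells had 3 raised (Pros1, Cd36 and Lrp1) and 3 lowered (Mertk, Axl and Abca1) of 13. Without mouse 7 this list had 3 raised and 1 lowered of 12. After thinning it had 1 raised and 2 lowered of 10, against 158 raised and 242 lowered of all 4101 transcripts tested.

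Iron genes that passed were lower in members, and the lipid-associated list was divided. Apoe, the carrier of cholesterol out of macrophages, was 36.7, 61.4 and 76.4 UMIs per 10,000 in members against 150, 174 and 194 in S100-low cells, a gap that no mouse bridged (-1.63 ± 0.11, adjusted p = 2.08e-10). Trf, encoding transferrin, was 4.67, 4.91 and 6.10 against 8.81, 10.0 and 11 (-1.04 ± 0.09). The iron exporter gene Slc40a1 fell by 1.55 and the heme-degrading enzyme gene Hmox1 by 0.72, and 5 of 10 heme and iron genes were lowered and none raised. Of 10 lipid-associated genes, Cd9, Lgals3, Lpl and Fabp5 were raised and Apoe and Fabp4 lowered. Fabp4 is also on the list of cavity macrophage genes given below. DESeq2 and thinning each gave 2 raised and 1 lowered. Without cells at 10 or more per 10,000 of another lineage list, 3 were raised and 1 lowered. Matrix genes had 4 raised and 2 lowered of 13. After thinning, 3 of 9 were raised and 0 lowered, and without cells of another lineage list 5 of 12 were raised and 1 lowered. Ecm1, a secreted matrix protein, rose by 1.68 (3.07, 4.50 and 5.92 against 1.01, 1.34 and 1.73), Timp2 by 0.46 and Mmp19 by 1.33, the last higher in 5 of 8 mice, and Mmp9, gelatinase B, fell by 1.71. The fourth raised gene was Timp1, an inhibitor of metalloproteinases, with 34 UMIs in the members of 8 mice. Retnla, an alternative-activation gene, rose by 1.69 (16.3, 31.1 and 51.6 against 5.10, 9.52 and 14.1). Lectin-high cells held a similar level, 29.4 against 34.4 in members with all cells pooled. After thinning, a Retnla UMI was found in 43.0% of lectin-high cells and 30.5% of members. By S100 bin it was 38.1 in the 82 cells between 30 and 40 and 23.1 in the 53 members at 70 or more. Adhesion genes had 6 raised and 3 lowered of 17, with Cd44 at 1.29 ± 0.14 and Cd9 at 1.42 ± 0.17 on the log2 scale. Nutrient and stress response genes, a list taken from the study and so not independent of these samples, had 4 lowered and none raised of 10. The 8 MHC class II presentation genes had none called at a median of -0.39. After thinning 4 of 7 were lowered, against 242 of all 4101 transcripts tested.

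Some of the named lowered genes were no longer tested, or lost their call, without cells rich in markers of other lineages. The lineage that each of them came from was not tested. Vcam1, the adhesion molecule that VLA-4 binds, was 0 to 0.261 UMIs per 10,000 in members (median 0.0355) and 0.574 to 1.33 in S100-low cells (median 0.778), a log2 change of -3.55 ± 0.33. The phospholipase gene Pla2g2d (-2.73), the interferon-induced GTPase gene Iigp1 (-2.69), the glutathione peroxidase gene Gpx3 (-2.57) and Serpinf1 (-2.43) were also lower in 8 of 8 mice. The other named genes were Hba-a2 (-6.03), Hbb-bt (-5.33), Prg4 (-4.58), Slpi (-3.98) and Saa3 (-3.66). The erythroid list summed to 27.9 UMIs per 10,000 in S100-low cells, with Hbb-bs the most abundant at 14.8, and to 0.749 in members, where Alas2 was at 0. The median cell had 0.731 and 0.666, and 16 S100-low cells and no member held 10 or more. A list of cavity macrophage genes, led by Prg4, summed to 2.83 and 0.286, with 15 S100-low cells and no member at 10 or more. Without cells at 10 or more of any list of another lineage (monocyte, dendritic cell, and NK and ILC2 lists not among them), all removed together, which left 7 mice with 10 members, Hba-a2, Hbb-bt, Prg4 and Saa3 were no longer tested and Slpi was at -0.43 (adjusted p = 0.463), while the other 15 named genes were still called.

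Markers of most other lineages were low in members, and some lists were higher than in S100-low cells. Fibroblast genes summed to 0.195 UMIs per 10,000 in members with Pdgfra at 0, and to 1.42 in S100-low cells. Of lymphatic endothelial genes, Flt4, Ccl21a and Mmrn1 were at 0 in members and the list summed to 0.143, against 0.0627 in S100-low cells. Aqp1 is also a gene of endothelium, and of blood endothelial genes Cdh5, Tek and Cldn5 were at 0 and the list summed to 0.0808, against 0.111. The NK and ILC2 list summed to 1.65 in members, with Areg as its most abundant gene, and to 1.04 in S100-low cells, and 1 of its 3 tested genes was raised. The monocyte list summed to 7.18 in members and 4.42 in S100-low cells, with Fn1 as its most abundant gene, and 14.9% of members held 10 or more against 4.31% of S100-low cells. Ccr2, the receptor of blood-derived monocytes and their progeny, was 0.769, 1.68 and 3.77 in members and 0.416, 0.645 and 1.37 in S100-low cells (1.27 ± 0.21, adjusted p = 0.000164, higher in 7 of 8 mice). The CCR2 antibody was sparse, at a median of 0.224 counts per cell on members, and was lower than on S100-low cells in 7 of 8 mice without passing (log2 change -0.11, adjusted p = 0.839). Ly6c2 and Chil3, marks of blood monocytes, had 2 and 1 UMIs in the members of 8 mice. The cycling list summed to 3.38 in members and 1.88 in S100-low cells, none of its 6 genes passed, and 4.02% and 2.70% of cells held 10 or more. The part of monocyte-derived or cycling cells in the comparison was not tested beyond the fit without cycling cells, in which 566 transcripts were higher and 631 lower.

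Surface antibodies gave a readout that the rule did not use. Of 73 antibodies tested against S100-low cells, 9 were higher and 6 lower in members (20.5% called, 12.3% raised and 8.22% lowered; edgeR). CD44, the hyaluronan receptor on leukocytes, was 64.3, 76.6 and 42.0 counts per cell in WT mice 1, 2 and 5, 87.4, 57.4 and 49.9 in mice 6, 8 and 10, and 131 and 64.4 in mice 7 and 9, against 15 to 36.4 in S100-low cells. Members of every mouse were above the S100-low cells of every mouse, and the log2 fold change was 1.43 ± 0.12 (adjusted p = 6.52e-06). CD9, a tetraspanin, was 23.5 to 105 (median 30.5) against 11.9 to 16.9, a log2 change of 1.40 ± 0.21 (adjusted p = 0.000303). CD226 was 4.16 to 15 (median 8.31) against 2.76 to 5.21 (1.00 ± 0.13). It did not rise steadily with the S100 level, with the cells of all mice pooled. It was 11.4 counts per cell in the 82 S100-low cells between 30 and 40. In members it was 8.43 between 40 and 50, 14.2 between 50 and 70, and 3.23 in the 53 at 70 or more. CD95, the Fas death receptor, rose by 0.88, CD40 by 0.70, CD43 by 0.69, PIRAB by 0.55, CD80 by 0.52 and ICAM1, which falls outside the naming rule, by 0.50. Of these, CD95, CD40, PIRAB and ICAM1 did not pass against lectin-high cells. The medians of CD40 and PIRAB were higher on lectin-high cells, at 5.30 and 49.1 counts per cell against 4.11 and 41.4 on members.

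Lower on members were CX3CR1, the fractalkine receptor, at 1.80 to 6.00 counts per cell against 3.81 to 7.74 (-0.77 ± 0.13, 8 of 8 mice), and the Fc receptor CD64 (-0.64). Against lectin-high cells the CX3CR1 antibody did not pass (-0.12, adjusted p = 0.710, edgeR). The Cx3cr1 transcript was higher in members than in lectin-high cells (1.59 on the log2 scale, adjusted p = 0.0250, edgeR). MHC class II, measured by the IAIE antibody, was 72.1 to 375 against 178 to 614 (-0.90 ± 0.21, adjusted p = 0.00615). It was lower in 8 of 8 mice although the ranges overlap. CD24 fell by 1.04, and the integrin antibodies ITGB7 (-1.50) and CD103 (-1.41) had medians of 0.394 and 0.450 counts per cell on members and were lower in 7 and 6 of 8 mice. By a map of antibodies to genes made after the values were seen, 12 of the called antibodies had a tested transcript and 9 moved the same way. In 6, CD44, CD9, CD226, CD95, CX3CR1 and CD64, both layers passed. Isotype controls summed to only 1 to 62 counts in the members of a mouse (median 27.5), and with them as the library size no antibody passed.

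**Figure D4:**
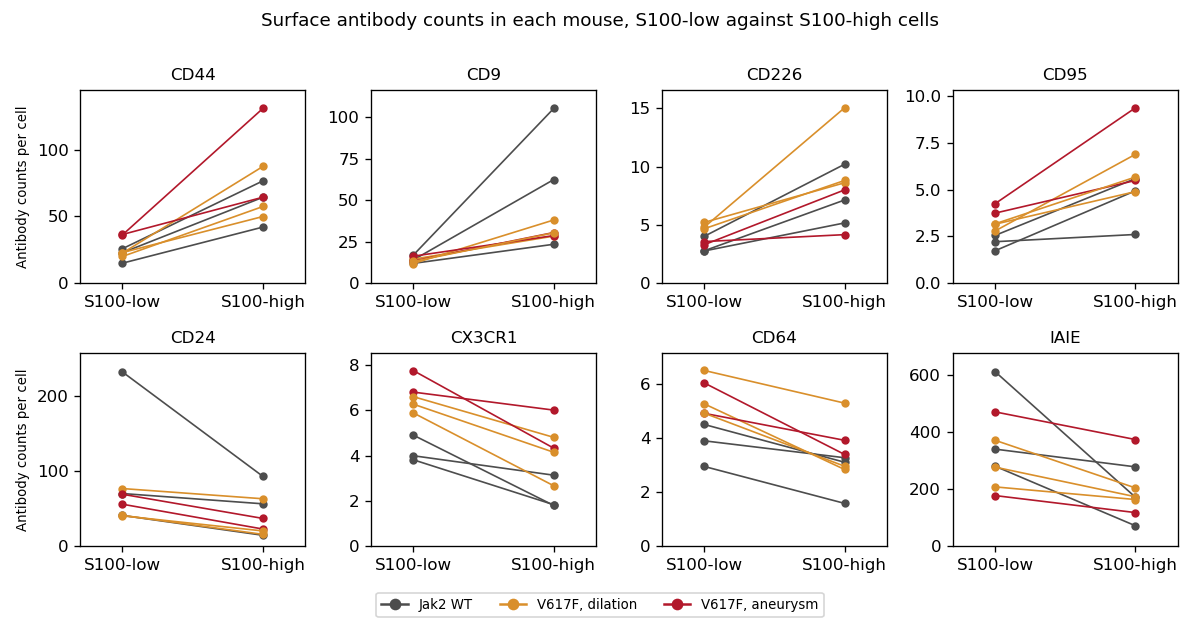
Counts per cell (y axis) of 8 surface antibodies in S100-low and S100-high cells, joined within each of the 8 mice and colored by group; the antibodies were chosen after their values were seen. CD44, CD9, CD226 and CD95 are higher and CD24, CX3CR1, CD64 and IAIE lower on S100-high cells in all 8 mice.

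Members also differed from lectin-high resident macrophages of the same mice, a class set apart by the lectin genes. Of 6122 transcripts tested, 601 were higher and 560 lower in members (19.0% called, 9.82% raised and 9.15% lowered). Scaling by total UMIs gave 782 and 458. The filament genes were raised in 17 of 17 and the annexin list in 12 of 15, with none lowered, and immediate-early genes were lowered in 15 of 18. Cd9 was 0.841, 1.52 and 5.55 UMIs per 10,000 in members and 0, 0.0831 and 0.738 in lectin-high cells, with no overlap (3.60 ± 0.40, adjusted p = 3.72e-06). Besides Aqp1, Atp2b4 and Crip2 from above, the naming rule gave Ildr2 (2.98), Aopep (2.70), the adhesion molecule gene Alcam (2.55), the dipeptidase gene Dpep2 (2.54), Plp2 (2.50) and Col14a1 (2.39). Lowered were the lectin genes Cd209b (-6.42) and Cd209a (-3.47), relatives of the gate genes, with Vcam1 (-3.65), Mmp9 (-3.63), Pla2g2d (-3.58), the chemokine gene Ccl8 (-3.32), Gpx3 (-3.07), Siglech (-2.56), Hbegf (-2.53) and Serpinf1 (-2.31). The 6 tested cycling genes were all raised, with 0 lectin-high cells and 4.02% of members at 10 or more UMIs per 10,000 of that list, and the part of cycling cells here was not tested. Both tested monocyte genes, Fn1 (2.56) and Ccr2 (1.24), were raised as well. The monocyte list summed to 7.18 in members and 2.04 in lectin-high cells, with 14.9% and 3.15% of cells at 10 or more, and its part in these changes was not tested. Lowered in members were all 4 tested erythroid and both tested neutrophil genes. The erythroid list summed to 31.2 in lectin-high cells (103 in mouse 8, and 63.8 in mouse 10) and to 0.749 in members. The neutrophil list summed to 5.6 (23.1 in mouse 9) and to 0.316.

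Of 14 chemokines tested against lectin-high cells, 3 were raised and 5 lowered, at a median of -0.07. By DESeq2, 1 of the 14 was raised and 4 were lowered. Ccl3 was at -0.30 ± 0.23 (adjusted p = 0.389) and Ccl4 at 0.20 ± 0.27 (adjusted p = 0.667), and the groups of both overlap. Of the 7 inflammatory transcripts, Tnfsf9 (0.64) and Cxcl10 (0.87) were higher and Ccl2 (-0.66) lower. DESeq2 raised 1 and lowered none of the 7, and scaling without TMM or leaving out mouse 2 raised 3 and lowered none. Of 66 antibodies tested, 7 were higher (CD9, CD11c, CD44, CD43, CD226, CD14 and CD80) and 6 lower (MGL1, which is the product of the gate gene Clec10a, and IAIE, CD169, CD64, CD39 and CD163), 19.7% in all (10.6% raised and 9.09% lowered). Scaling by total antibody counts without TMM gave 15 higher and 3 lower, and isotype counts as library size gave 1 higher and 1 lower. Without mouse 1 or without mouse 7, 4 were higher. CD9 was 23.5 to 105 counts per cell on members and 4.05 to 10.5 on lectin-high cells (2.38 ± 0.33, adjusted p = 0.000293).

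Within members, the question was whether the mutation changed their transcripts. Of 4264 tested, none passed between 5 mutant and 3 WT mice (0% called, edgeR), 316 had an unadjusted p under 0.05, and DESeq2 called 2, Wfdc17 and Tnf. Tnf, the cytokine, was 0.865, 0.495 and 1.74 UMIs per 10,000 in WT mice 1, 2 and 5, 3.82, 2.19 and 2.90 in mice 6, 8 and 10, and 4.75 and 3.33 in mice 7 and 9. Every mutant mouse was above every WT mouse, at a log2 difference of 1.73 ± 0.35 (adjusted p = 0.189). Wfdc17, a secreted inhibitor-like protein, was 11.9, 9.12 and 8.41 in WT mice, 18.8, 19.1 and 14.0 with dilation and 17.7 and 16.2 with aneurysm (0.83 ± 0.15, adjusted p = 0.154), again with no overlap. How many of the 4264 transcripts separate the genotypes in this way is not given. The lack of overlap of Tnf and Wfdc17 is therefore a description only. Cxcl2 was 29.6, 34.2 and 59.3 in WT mice, 104, 67.3 and 61.0 with dilation and 98 and 71.5 with aneurysm (0.98 ± 0.24, adjusted p = 0.315). Its WT mouse 5 came close to mouse 10.

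The 7 inflammatory transcripts had a median log2 difference of 1.09 against -0.01 over all transcripts tested, with Nlrp3 at 1.44 (adjusted p = 0.651), Tnfsf9 at 1.54, Cxcl1 at 1.09, Ccl2 at 0.15 and Cxcl10 at -0.11. None passed. The study named these transcripts from the same samples, as higher in a resident subset found mostly in mutant aortas. Their median is therefore a description and not independent support. In S100-low cells of the same mice, an alternative added after the values were seen, Vim (0.72 ± 0.10, adjusted p = 0.0345) and Cxcl10 (1.18 ± 0.17, adjusted p = 0.0345) were the 2 of 8089 transcripts that passed (0.0247%), and Tnf was at 0.66 ± 0.16 (adjusted p = 0.206). The difference of the genotype effect between members and S100-low cells, tested as an interaction, passed for 0 of 8179 transcripts (0% called, edgeR), with 421 at an unadjusted p under 0.05 and 0 by DESeq2. For Tnf it was 1.12 ± 0.33 (adjusted p = 0.935) and for Cxcl10 it was -1.11 ± 0.42 (adjusted p = 0.935).

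These genotype counts changed when single mice were left out. Without WT mouse 5, which left only mice 1 and 2 as WT, 11 transcripts passed, 10 higher and 1 lower in mutant members. Among them were Tnf (2.39), Cxcl2 (1.38), the adhesion molecule gene Icam1 (2.17), Nfkbia (1.29) and Egr1 (1.45). Without WT mouse 1, which left only mice 2 and 5 as WT, Wfdc17 and Cmah passed. At an S100 threshold of 50, 6 passed, with Tnf at 2.53 (adjusted p = 0.0191), but there the minimum per mouse also went from 10 to 5 members, because fewer than 3 WT mice had 10, so both choices differ. Jak2 had 68 UMIs in the members of 8 mice and was too sparse to be tested between genotypes, at 0.0618, 0.275 and 0.0561 in WT mice 1, 2 and 5 and 0.199 to 0.352 in mutant mice, and these counts do not tell the alleles apart. Lyz2, the gene whose promoter drives the Cre, was 60.7, 70.3 and 156 (lowest, median and highest of 8 mice) in members. No antibody of 59 passed between genotypes (0% called), with 5 at an unadjusted p under 0.05, whereas 18 were lower in mutant members with isotype counts as library size and 2 without mouse 5.

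Between mutant mice with aneurysm and with dilation, 3 of 4736 transcripts passed in members (0.0633%, all higher in aneurysm). Spp1 (chromosome 5, 104435118 to 104441050, + strand), encoding osteopontin, was 0.0390, 0.0746 and 0.0334 UMIs per 10,000 in mice 6, 8 and 10 and 0.703 and 1.02 in mice 7 and 9 (3.92 ± 0.48, adjusted p = 0.0039), from 5 UMIs with dilation and 95 with aneurysm. Cxcl1 was 1.72, 1.54 and 0.601 against 9.14 and 5.62 (2.49 ± 0.35, adjusted p = 0.0106), from 124 and 852 UMIs. Acp5, the tartrate-resistant acid phosphatase, was 0, 0.0497 and 0.0668 against 0.927 and 0.461 (3.93 ± 0.65, adjusted p = 0.0386), from 4 and 81 UMIs. The mice of the groups did not overlap for any of the 3. The adjusted p missed the threshold for Spp1 without mouse 9 or 10 (3.64 and 3.73 on the log2 scale), for Cxcl1 without mouse 7, 8 or 10 (2.10 to 2.66), and for Acp5 without mouse 6, 7, 8 or 10 and by DESeq2 (3.33 to 4.37). Without mouse 7 or 9 the aneurysm group is 1 mouse, which is assumed to vary like the other groups. DESeq2 also called Il6, chosen here after its value was seen, lower in aneurysm (-3.35, adjusted p = 0.00494). With sums of at least 5 cells, Spp1 alone passed.

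**Figure D5:**
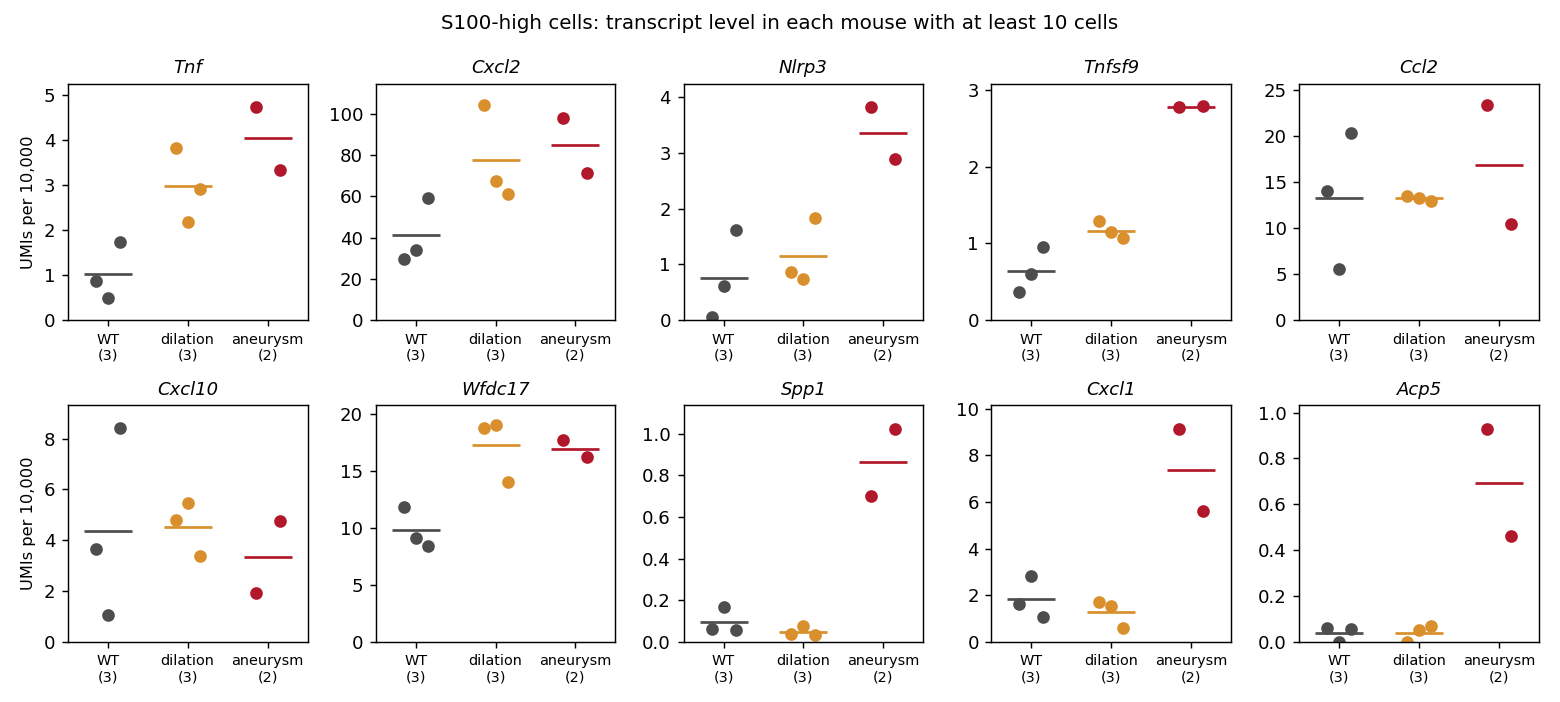
Level of 10 transcripts (UMIs per 10,000, y axis) in members of each of the 8 mice with at least 10 members, by group, with lines at group means; genes were chosen after their values were seen. Tnf and Wfdc17 are higher in all 5 mutant mice than in the 3 WT mice but did not pass the test, and Spp1, Cxcl1 and Acp5 are higher in both aneurysm mice than in the 3 dilation mice.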

How the data were processed

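Aortic CD45+ cells of 5 WT and 5 mutant mice were measured in 1 pooled run. The authors counted reads with Cell Ranger 6.0.2 on mm10 and deposited whole UMI counts per barcode for 32285 genes, 75 antibodies and 10 hashtags, without normalization. Their cell labels were not used here. The members, comparison classes, gene lists and tests were chosen with earlier results of these data known. Hashtags gave the mouse. Doublets were left out only through the hashtag, Cd79a and Cd3e steps. Counts were summed per mouse and class (at least 10 cells, or 5 in genotype fits where fewer than 3 mice of a genotype had 10 before any mouse was left out), without the 15 rule genes, filtered by filterByExpr and tested in R 4.3.3 with edgeR 4.0.16 (quasi-likelihood, TMM, mouse as a block between classes, since both classes come from the same animals), and p-values were adjusted by Benjamini-Hochberg and called under 0.05; the SE was taken as the size of the log2 change divided by the square root of its F statistic. Named genes are the 10 largest changes per direction among called genes that moved one way in all 8 mice and averaged at least 20 CPM in the class where they are higher; for antibodies, up to 8 called per direction by size alone. Shares were tested by two-sided exact permutation. Alternatives were other thresholds, thinning to 3000 UMIs, DESeq2 1.42.0, other scalings, no filter and leaving out each mouse. The steps were tested on simulated data. Promoter sequences are from RefSeq and gene positions from GENCODE vM21, both on GRCm38. Depth was 3650 to 64537 UMIs per member. Values of a few members of the gene lists are not reported here.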

Additional observations from a re-analysis of the deposited data

Results flagged for a closer look

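In 67 groups of 4 to 10 mice, the mouse at the end of the range was checked for a gap to the others that is wide for the whole range (Dixon's 95% limit). Chance alone gives about 1 in 20 such groups, and 10 stood out. The groups share the same mice and the items were chosen with earlier results known. The rate of 1 in 20 is thus a rough guide, and whether 10 is more than chance was not tested. WT mouse 3 had a member share of 2.52%, against 9.09% to 10.3% in the other WT mice, from 3 members. In members of mutant mice, mouse 7 stood apart with Crip2 at 0.687, Cd209a at 0.272 and Ccl2 at 23.4 UMIs per 10,000, and on the surface with ITGB7 at 0.758 and CD39 at 198 counts per cell. Mouse 8 stood apart with Cd226 at 0.672 and Col14a1 at 0.597 UMIs per 10,000 and with CD9 at 38.1 counts per cell. Mouse 10 stood apart with Iigp1 at 0.300 UMIs per 10,000. The share lay below the other WT mice, and the other 9 values lay above the other mutant mice.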

How the results depend on the processing

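Against S100-low cells, the number of transcripts called stayed within 1.5 times of 1267 except with cells thinned to 3000 UMIs (400) and without cells with 2 UMIs of another lineage list (3, in 2 mice), which removes most cells; for the genotype comparison that alternative could not be fitted, because no WT mouse was left. Against lectin-high cells DESeq2 called 757 in place of 1161. With isotype controls as library size, 0 antibodies passed against S100-low and 2 against lectin-high cells, and 18 between genotypes in place of 0. Between genotypes, in place of 0 transcripts, 1 passed at an S100 threshold of 30, 6 at 50, 1 at a resident score of 25, 1 without cells at 10 per 10,000 of another lineage list, 2 by DESeq2, 143 with no low-count filter and 3 for aneurysm only against WT. At a threshold of 50 and without other-lineage cells, fewer than 3 WT mice had 10 members, so the minimum was 5 there too; that minimum alone gave 0. Leaving out each mouse gave 0 to 11 for transcripts and 0 to 2 for antibodies between genotypes, 0 to 13 for the interaction and 0 to 5 for aneurysm against dilation, where without mouse 7 or 9 a lone aneurysm mouse takes its spread from the other groups. With no low-count filter the interaction gave 35 and aneurysm against dilation 49, and with sums of at least 5 cells the latter gave 1. The mutant minus WT share passed the test without mouse 10 (5.74 points, exact permutation p = 0.00794) and ranged from 2.87 to 5.74 points over left-out mice. Aneurysm minus dilation reversed to -1.20 points of all passing barcodes and, over left-out mice, ranged from -0.504 to 4.68. Without the mouse as a replicate block, 1106 and 950 transcripts and 16 and 13 antibodies were called in the comparisons between classes, in place of 1267, 1161, 15 and 13. For named genes under DESeq2, scaling without TMM, no low-count filter and left-out mice, 460 values kept the call, 10 lost it (all in aneurysm against dilation) and none reversed. Outside these settings, Slpi lost its call without cells at 10 per 10,000 of another lineage list, and Cxcl1 and Acp5 with sums of at least 5 cells. The genotype comparison rested on 10 to 33 members per mouse. The causes of these changes were not tested.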
